A study of Mus musculus with 8 samples.

Results

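The 9 genes described here, Ifit1, Ifit2, Ifit3, Irf7, Irf9, Isg15, Oasl2, Usp18 and Bst2, belong to the type I interferon response, and were taken by gene name from a table of 54532 genes counted in mouse cortex. All 9 names were found once, and all 9 were among the 17195 genes with enough counts to be tested. RNA-seq was performed on 8 cortices from 8-mo-old C57BL/6 mice that were kept on a light-dark cycle, with 1 library per mouse. All 8 mice carried PS19, a transgene for human 1N4R tau with the P301S mutation, placed under the prion (Prnp) promoter of the mouse. The 4 PS19 mice were m677, m668, m665 and m659. The 4 Adrb1-A187V;PS19 mice, labelled Adrb1+/m;PS19, were m671, m661, m660 and m658, and had in addition 1 mutant copy of Adrb1, the gene of the beta-1 adrenergic receptor. The comparison asks whether this mutation changes cortical expression in the presence of tau pathology, and no mice without PS19 were in the series, so every level below is a level in PS19 cortex.

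Type I interferons are secreted after a cell senses viral or misplaced nucleic acid. They bind the receptor made of Ifnar1 and Ifnar2, which activates the kinases Jak1 and Tyk2, and these phosphorylate transcription factors such as Stat2. Together with Irf9 they form a complex that binds a DNA element, the interferon-stimulated response element, near the genes it switches on. In the brain, microglia are among the cells that respond strongly, and interferon-stimulated genes are known to rise in microglia with age and in models of amyloid and tau disease.

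The promoters of the 4 members that held a match to the core of that element are shown. Whether a match has a part in the covariation of the members described below was not tested. The sequences are RefSeq's for GRCm38.p6, from 250 bases before to 50 bases after a start site. The search was for GAAANNGAAA on both strands (TTTCNNTTTC on the strand shown), with overlapping matches counted. Each line gives the matches with 25 bases on either side, 5′ to 3′ on the gene's strand, with the matches in capitals.
Ifit1, chr19:34640760-34640838, plus strand: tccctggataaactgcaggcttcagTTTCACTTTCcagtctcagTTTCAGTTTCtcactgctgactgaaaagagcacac
Ifit3, chr19:34583348-34583441, plus strand: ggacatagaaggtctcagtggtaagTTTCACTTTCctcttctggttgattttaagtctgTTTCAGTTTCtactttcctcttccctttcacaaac
Isg15, chr4:156200850-156200921, minus strand: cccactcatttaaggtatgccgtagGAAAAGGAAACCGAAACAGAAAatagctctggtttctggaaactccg
Bst2, chr8:71537562-71537627, minus strand: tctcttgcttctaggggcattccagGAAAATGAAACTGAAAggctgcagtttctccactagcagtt

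The motif occurred 2 times in Ifit1, 2 times in Ifit3, 3 times in Isg15 and 2 times in Bst2, where neighbouring matches overlap. The first match began 78 to 156 bases before the start site. Ifit2 (2 windows), Irf9 (2 windows), Irf7 and Oasl2 had none in these 300 bases, and no window of Usp18 was used here. The motif was present in 3.44% of all 32851 promoter windows, in 22 of 49 other type I interferon-stimulated genes listed, and in 3.62% of the 12111 tested genes with a window. A match is a match of letters and no evidence of binding.

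Library totals were 14653222 to 21223754 counts, and the TMM scaling factors (edgeR's correction for library composition) lay between 0.990 and 1.01. Values below are CPM, counts scaled to the library size with these factors, and the error of a group is an SD over 4 mice. Adrb1 was 36.8 ± 4.19 CPM in PS19 and 35.0 ± 3.71 CPM in double-mutant mice, which checks no label, since A187V is a change of 1 amino acid that counts do not show. Choroid plexus markers differed widely between libraries (29.1 to 602.9 summed CPM, highest in m658 and m668).

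No genotype difference was detected for any of the 9 genes. In edgeR's test, 481 of 17195 genes had an unadjusted p under 0.05, which is 2.80% of those tested, and no member was among them. The smallest adjusted p over all genes was 0.9996, and DESeq2 and limma-voom likewise called no gene after adjustment. The genotypes' CPM did not overlap in 2.02% of the genes tested, and they overlapped in 9 of 9 members. The median log2 fold change of the members was -0.03 and that of all genes tested 0.00046, with 2 members higher and 7 lower in Adrb1-A187V;PS19 mice, and limma-voom gave Ifit1, Ifit3 and Usp18 the opposite sign. In contrast, 7 of the 9 genes, all but Irf9 and Ifit2, varied at least 2.04-fold between mice of the same genotype. In bulk tissue, fewer cells of a type and less RNA per cell cannot be told apart.

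Irf9 and Irf7 are transcription factors of the pathway, Irf9 as the DNA-binding partner of Stat2 and Irf7 as an inducer of the interferon genes themselves. Irf9 (chr14:55603571-55610030) was measured at 14.5, 15.7, 12.4 and 14.4 CPM in the PS19 mice m677, m668, m665 and m659, and at 11.8, 9.05, 13.9 and 14.9 CPM in the Adrb1-A187V;PS19 mice m671, m661, m660 and m658. The lowest values were in m661 and m671, and the genotypes overlapped. The log2 fold change (Adrb1-A187V;PS19 vs. PS19) was -0.20 (SE 0.14; 95% interval -0.50 to 0.11; edgeR unadjusted p = 0.187). Irf7 (chr7:141262706-141266481), in the same order of mice, was 6.00, 4.97, 2.69 and 4.22 CPM in the 4 PS19 mice, against 3.12, 2.49, 6.66 and 4.92 CPM in the 4 Adrb1-A187V;PS19 mice. Each genotype held both high and low mice, and the log2 fold change was -0.05 (SE 0.30; 95% interval -0.70 to 0.60).

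Isg15 encodes a ubiquitin-like protein that is attached to other proteins, and Usp18 removes it and also blocks signalling at the receptor, a brake on the response. Isg15 (chr4:156199424-156200818) was 6.19, 4.42, 2.08 and 4.16 CPM in the 4 PS19 mice, against 2.88, 1.63, 3.53 and 4.30 CPM in the 4 Adrb1-A187V;PS19 mice. It showed the widest range of the members, 3.80-fold from m661 to m677, and the largest genotype difference, a log2 fold change of -0.44 (SE 0.33; 95% interval -1.15 to 0.26; edgeR unadjusted p = 0.197). Without the PS19 mouse m665 it was -0.68 (edgeR unadjusted p = 0.0326, adjusted p = 0.9998), without m677 it was -0.19 (unadjusted p = 0.578) and without m661 -0.22 (unadjusted p = 0.477). The exact permutation test on CPM gave p = 0.314 with all mice. Usp18 (chr6:121245906-121270917) was 2.69, 1.31, 1.65 and 2.47 CPM in the 4 PS19 mice, against 1.62, 1.10, 4.03 and 1.81 CPM in the 4 Adrb1-A187V;PS19 mice. The mouse m660 stood highest, the counts were the lowest of the 9 (19 to 72), and the log2 fold change of 0.07 had the widest interval (SE 0.38; -0.74 to 0.88).

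The Ifit proteins bind foreign RNA and block its translation, and their genes lie together on chromosome 19, where 6 Ifit genes span 99316 bases. Ifit1 (chr19:34640871-34650009) was 9.43, 5.73, 3.35 and 6.14 CPM in the 4 PS19 mice, against 4.38, 3.88, 9.35 and 6.90 CPM in the 4 Adrb1-A187V;PS19 mice. Ifit3 (chr19:34583531-34588731) was 24.2, 10.8, 7.84 and 17.3 CPM in the 4 PS19 mice, against 10.6, 9.91, 20.3 and 18.4 CPM in the 4 Adrb1-A187V;PS19 mice. Both genes ranked the 8 mice in exactly the same order, from m677 down to m665. The log2 fold changes were -0.0014 (SE 0.31) for Ifit1 and -0.02 (SE 0.31) for Ifit3. Ifit2 (chr19:34550694-34576419), which ends 7111 bases before Ifit3, was 16.5, 14.6, 16.5 and 14.2 CPM in the 4 PS19 mice, against 14.0, 15.5, 14.6 and 14.3 CPM in the 4 Adrb1-A187V;PS19 mice. Ifit2 was nearly level, 1.18-fold from the lowest to the highest mouse. The highest was m677, as in Ifit1 and Ifit3, and next came m665 and m661, which were among the lowest in those genes. Its log2 fold change was -0.08 (SE 0.09; 95% interval -0.28 to 0.11).

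Oasl2 encodes a relative of the oligoadenylate synthetases that sense double-stranded RNA, and Bst2, also called tetherin, holds budding virus particles at the cell surface. Oasl2 (chr5:114896936-114912234) was 11.1, 9.25, 4.25 and 10.6 CPM in the 4 PS19 mice, against 5.46, 3.98, 13.5 and 11.3 CPM in the 4 Adrb1-A187V;PS19 mice. Bst2 (chr8:71534255-71537456) was 7.66, 6.35, 3.68 and 8.85 CPM in the 4 PS19 mice, against 4.44, 4.26, 8.96 and 8.94 CPM in the 4 Adrb1-A187V;PS19 mice. In both, m665, m671 and m661 were lowest, whatever the genotype. The log2 fold changes were -0.03 (SE 0.35; 95% interval -0.79 to 0.73) for Oasl2 and 0.01 (SE 0.29; -0.62 to 0.63) for Bst2.

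**Figure D1:**
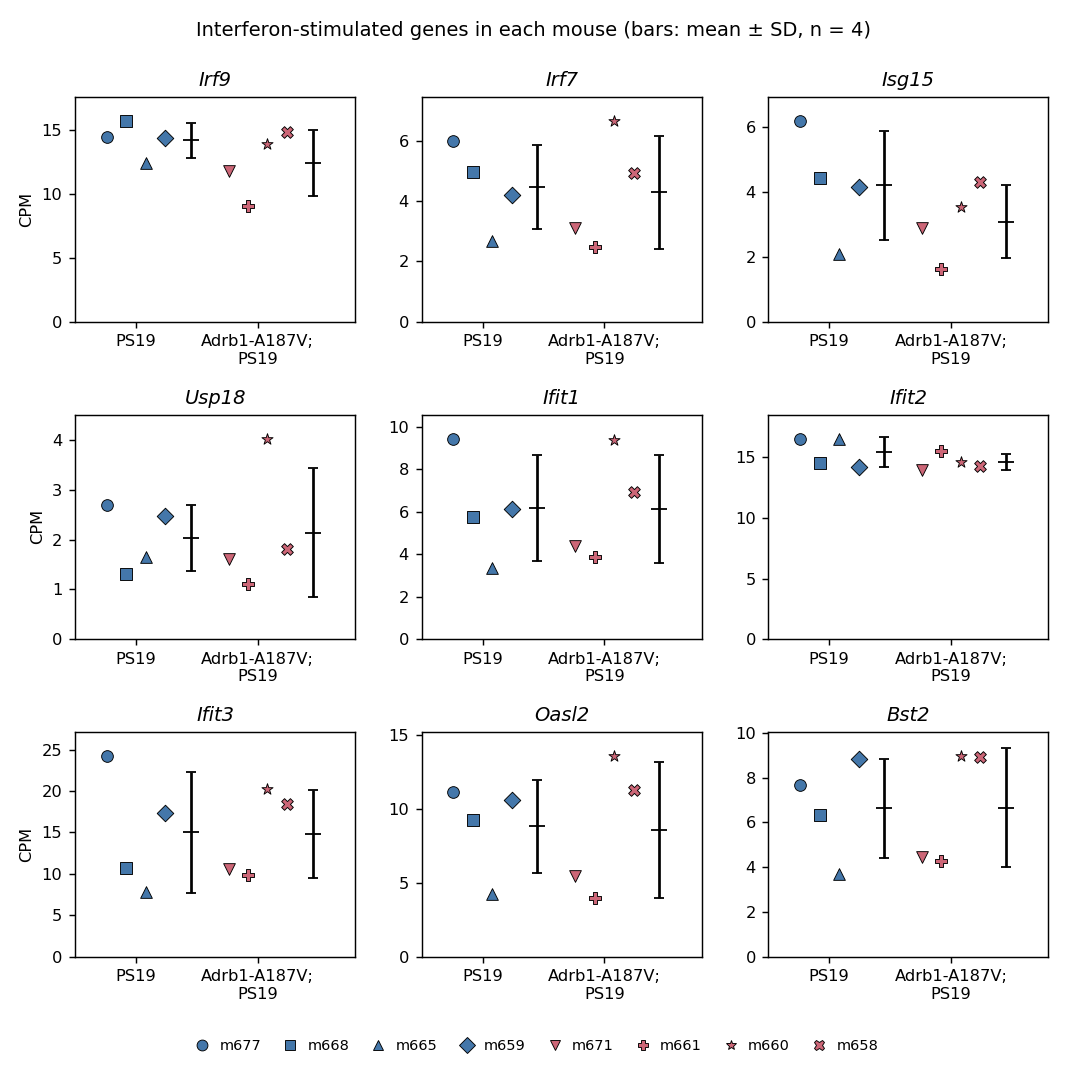
CPM (y axis, from 0) of the 9 genes in each mouse, PS19 in blue and Adrb1-A187V;PS19 in red, 1 symbol per mouse, with mean ± SD of 4 mice in black. The genotypes overlap in 9 of 9 genes, and Ifit2 alone spans less than 1.5-fold over the 8 mice.

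Exact permutation tests of CPM gave p = 0.229 to 1.0 for the 9 genes, where 4 mice against 4 can reach 0.0286 at the lowest. By the 95% intervals, Ifit2 lay between 0.824-fold and 1.08-fold of its PS19 level, Irf9 between 0.705-fold and 1.08-fold, and Usp18 between 0.599-fold and 1.83-fold. Values inside these intervals are compatible with the data of 4 mice per genotype. A share of 20.6% of the variance of log2 CPM lay between genotypes for Irf9, 19.2% for Ifit2, 13.6% for Isg15, and at most 1.04% for the other 6.

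**Figure D2:**
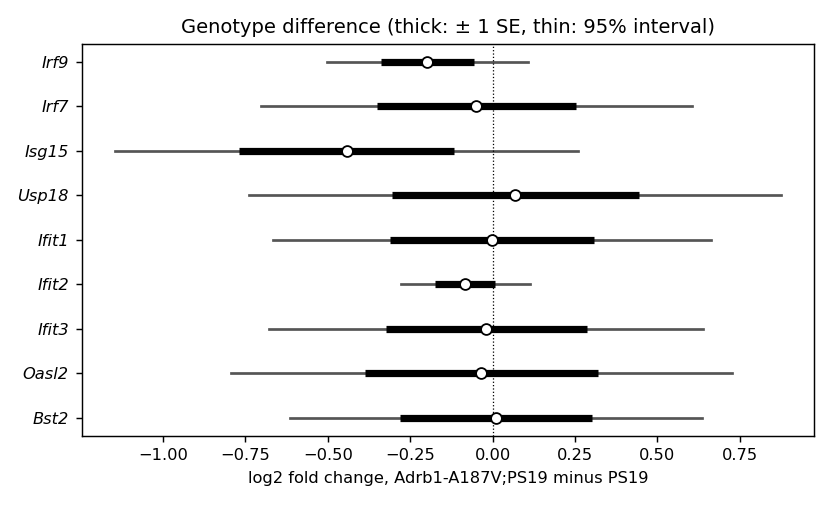
Log2 fold change of the 9 genes, Adrb1-A187V;PS19 minus PS19 mice (x axis), from edgeR. Circles are estimates, thick bars ± 1 SE and thin bars 95% intervals, and the interval includes 0 for 9 of 9 genes, from the narrow one of Ifit2 (-0.28 to 0.11) to the wide one of Usp18 (-0.74 to 0.88).

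Per length, as CPM per kilobase of the deposited gene length averaged over 8 mice, the level was highest for Ifit3 (8.55 ± 3.38, SD over 8 mice) and Bst2 (7.36 ± 2.51). Isg15 (4.82 ± 1.93), Ifit2 (3.83 ± 0.262), Irf9 (2.48 ± 0.400) and Ifit1 (2.31 ± 0.876) were intermediate. Oasl2 (1.36 ± 0.571), Irf7 (1.16 ± 0.407) and Usp18 (0.748 ± 0.341) were lowest. The differences Ifit3 to Bst2, Isg15 to Ifit2, Irf9 to Ifit1 and Oasl2 to Irf7 were smaller than the larger SD of the pair, whereas the other 4 neighbours in this order were in the same order in 8 of 8 mice.

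The scatter between mice, edgeR's biological coefficient of variation, was 0.277 to 0.341 for Ifit1, Ifit3, Irf7, Isg15, Oasl2, Usp18 and Bst2, against 0.112 to 0.233 for genes of like abundance on edgeR's trend. For each of these 7 genes at least 92.2% of all genes tested had a scatter at or below its own, and the median over all genes was 0.101. Irf9 (0.135) was nearer its trend (0.116), and Ifit2 (0.084) lay below it (0.111). The spread within each genotype was not tested for a difference. Oasl2 varied 2.62-fold among PS19 mice and 3.41-fold among Adrb1-A187V;PS19 mice, Ifit1 varied 2.81-fold and 2.41-fold, and Bst2 varied 2.40-fold and 2.10-fold. The ranges were less alike for Usp18 (2.05-fold and 3.66-fold), Ifit3 (3.09-fold and 2.04-fold) and Irf9 (1.27-fold and 1.64-fold).

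Most members, though not Ifit2, rose and fell together from mouse to mouse. Averaged over the 9 genes, the deviation of log2 CPM from each gene's own mean was 0.48 in m677, 0.22 in m659, 0.02 in m668 and -0.52 in m665 among PS19 mice. Among Adrb1-A187V;PS19 mice it was 0.48 in m660, 0.25 in m658, -0.32 in m671 and -0.61 in m661. The mice m677 and m658 were among the 4 highest for 8 of the 8 genes other than Ifit2, m659 for 7, m660 for 6 and m668 for 3. The mice m665, m671 and m661 were among them for none. Both genotypes thus held mice at the top and at the bottom of the order.

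**Figure D3:**
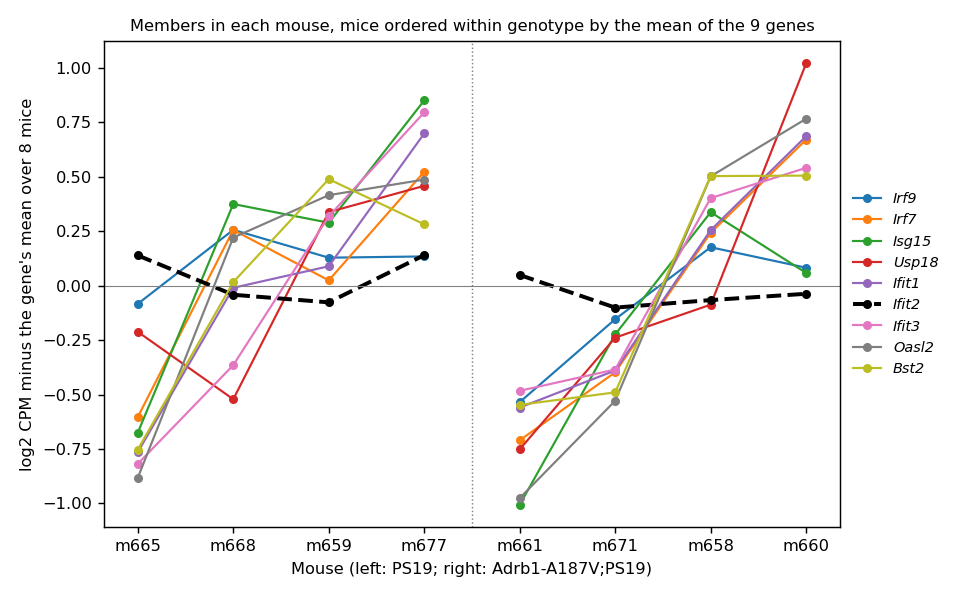
Deviation of log2 CPM from the gene's own mean (y axis) for the 9 genes, with mice on the x axis ordered within each genotype by the mean of the 9 genes, 1 line per gene and Ifit2 dashed in black. The 8 genes other than Ifit2 are higher in m677 than in m665 and higher in m660 than in m661, while Ifit2 stays within 0.14 of its mean.

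Pearson's r of log2 CPM was computed for 36 pairs of members over the 8 mice, with exact permutation over all pairings and Benjamini-Hochberg adjustment over the 36 pairs. The members were proposed with earlier results of these data in view, so the correlations describe these 8 mice and are no independent evidence of a shared programme. For the 28 pairs without Ifit2 the median r was 0.82 (0.48 to 0.97), and 20 of them had an adjusted p under 0.05 (10 by Spearman's rho). Ifit1 and Ifit3 had r = 0.95 and rho = 1.0 (exact permutation p = 2.48e-05 and 4.96e-05, adjusted 0.000893 and 0.00179), and Oasl2 and Bst2 had r = 0.97 and rho = 0.95 (exact permutation p = 0.000769 and 0.00114, adjusted 0.00554 and 0.0205). The lowest were Irf9 with Usp18 (r = 0.48, rho = 0.29, exact permutation p = 0.226 and 0.501, adjusted 0.291 and 0.644) and Isg15 with Usp18 (r = 0.52, rho = 0.43, exact permutation p = 0.185 and 0.299, adjusted 0.247 and 0.399). The 8 pairs with Ifit2 had r between -0.37 and -0.04, and none passed.

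After each genotype's mean was removed the median r of the 28 pairs was 0.85 (lowest 0.53), so the covariation was also present within genotypes. Without the 2 mice farthest from the median of the first gene of a pair, the median was 0.70 and 27 of 28 stayed positive, with r = 0.96 for Ifit1 with Irf7 and 0.95 for Oasl2 with Bst2. Irf9 with Usp18 fell to -0.18 and Isg15 with Usp18 to 0.10, and neither pair had passed with all mice. Leaving out the extremes of the first gene narrows its range, which by itself can lower r. With 1 mouse left out, the number of pairs that passed was 9 of 36 without m677, 21 without m668, 7 without m665, 8 without m659, 9 without m671, 7 without m661, 12 without m660 and 6 without m658. The median r over the 28 pairs was between 0.77 and 0.86 in these sets, while the lowest r of the 28 was 0.078 without m661 and 0.44 to 0.68 without any other mouse.

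**Figure D4:**
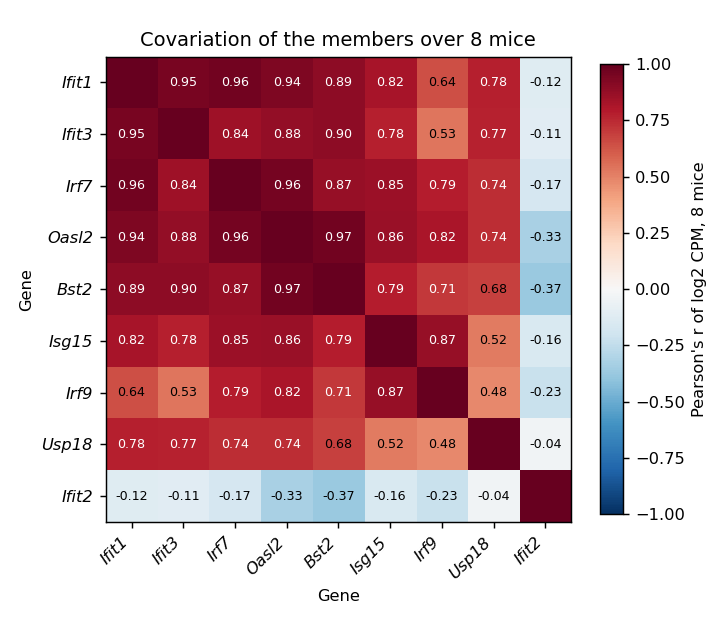
Pearson's r of log2 CPM over 8 mice for each pair of the 9 genes, with both axes listing the genes, red for positive and blue for negative values. The 28 pairs without Ifit2 lie between 0.48 and 0.97, and the 8 pairs with Ifit2 between -0.37 and -0.04.

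The interferon genes themselves were close to undetected. Of 21 ligand genes, 18 had 0 counts in every mouse, among them Ifnb1, Ifng and Ifna1, and the other 3, Ifnab, Ifnk and Ifnz, had at most 1 count in a mouse. None could be tested. The receptor and signalling genes were detected in every mouse, and none passed the test. The log2 fold changes were 0.03 (SE 0.07) for Ifnar1, 0.00066 (SE 0.12) for Ifnar2, 0.02 (SE 0.05) for Jak1, -0.04 (SE 0.09) for Tyk2 and -0.07 (SE 0.09) for Stat2.

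Not all of these genes followed the members across mice. Ifnar2, Tyk2 and Stat2 had r of 0.82, 0.81 and 0.74 with the mean of the 9 genes over 8 mice, whereas Ifnar1 and Jak1 had -0.29 and -0.38. These r values, here and below, are descriptions without a test, since all values of a mouse come from the same library and share its depth and its mix of cells.

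No gene of the wider pathway had an unadjusted p under 0.05 in either direction, of 115 tested. Among 15 sensors of nucleic acid and their adaptors, the log2 fold changes ran from 0.22 (SE 0.20) for Ikbke and 0.14 (SE 0.33) for Tlr7 to -0.27 (SE 0.18) for Tmem173, which encodes STING, and -0.40 (SE 0.50) for Zbp1, and the median was 0.08. Among 12 other regulatory factors and brakes they ran from 0.31 (SE 0.29) for Socs1, a brake on the JAK kinases, to -0.19 (SE 0.31) for Nlrc5 and -0.20 (SE 0.19) for Irf5, with a median of -0.00022. The 58 other type I interferon-stimulated genes tested ran from 0.40 (SE 0.30) for Epsti1 and 0.32 (SE 0.22) for Parp14 to -0.46 (SE 0.43) for Ifi207 and -0.63 (SE 0.37) for Phf11d, with 28 of 58 higher and a median of -0.02. The 18 targets of interferon-gamma ran from 0.26 (SE 0.20) for Tap1 and 0.24 (SE 0.19) for Gbp4 to -0.48 (SE 0.34) for H2-Aa and -0.51 (SE 0.38) for H2-Eb1, the last 2 being MHC class II genes.

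The close relatives of the members split. Ifit3b, a near-identical copy beside Ifit3, was 10.2, 5.73, 4.63 and 9.64 CPM in the 4 PS19 mice, against 7.32, 5.51, 9.24 and 8.49 CPM in the 4 Adrb1-A187V;PS19 mice. It followed the members (r = 0.86) and had a log2 fold change of 0.02 (SE 0.24), which did not pass the test. Since the 2 copies share sequence, the division of reads between Ifit3 and Ifit3b is uncertain. Ifit1bl1 (log2 fold change -0.07, SE 0.22) and Ifit1bl2 (-0.15, SE 0.31) did not follow them (r = -0.28 and -0.61), and the same caution holds for these relatives of Ifit1. Oasl1 had 2 to 26 counts and was not tested.

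Some members overlap other genes. Irf9 shares 123 bases with Rnf31 on the same strand and Irf7 45 bases with Phrf1 on the opposite strand. Usp18 shares 15715 bases with Gm44148, an opposite-strand lincRNA of at most 0.170 CPM. Reads in shared bases may have been given to either gene or left out.

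In the likeness to the mean of the members, 971 of 17195 genes tested (5.65%) had r of at least 0.7. The share was 28 of 58 among the other type I interferon-stimulated genes, 10 of 18 among the targets of interferon-gamma, 7 of 15 among the sensors and 5 of 9 among the receptor and signalling genes. The 10 non-members most alike were Nlrc5 and Gbp2 (both r = 0.99 over 8 mice), Naip5 (0.98), Glra3 and Inpp5d (both 0.97), and Krt2, Rsph4a, Ctsh, Vsir and Dock8 (each 0.96). Nlrc5, the transactivator of MHC class I genes, was 3.67, 2.62, 1.70 and 3.01 CPM in the 4 PS19 mice, against 1.86, 1.44, 3.47 and 2.83 CPM in the 4 Adrb1-A187V;PS19 mice. Gbp2 encodes an interferon-induced guanylate-binding protein, Inpp5d a lipid phosphatase of microglia and other blood-lineage cells, and Glra3 a glycine receptor subunit. Krt2 had only 3 to 18 counts.

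Of the other genes of the response, the chemokine gene Cxcl10 was 2.57, 1.73, 0.142 and 1.99 CPM in the 4 PS19 mice, against 0.720, 0.239, 2.35 and 2.72 CPM in the 4 Adrb1-A187V;PS19 mice, a range of 3 to 48 counts. Lgals3bp varied 3.27-fold over the 8 mice, within the range of the members, and Lag3 varied 4.03-fold, against 3.80-fold for Isg15. The lowest mice for Cxcl10 and Lgals3bp were m665 and m661, and those for Lag3 were m661 and m665, the 2 mice lowest in the mean of the members. Cxcl10, Lgals3bp and Lag3 were picked after their values were seen, and had r of 0.94, 0.91 and 0.89 with that mean. Other genes of the same list did not follow it, among them Znfx1 (r = -0.69), Pml (-0.45), Oas1c (-0.43) and Herc6 (-0.26). The median r of the 58 genes tested was 0.69.

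Most markers of microglia and astrocytes, but not all, moved with the members. The summed CPM of 16 microglial markers was 907.9, 660.9, 575.0 and 1012 in the PS19 mice m677, m668, m665 and m659, and 721.6, 533.5, 995.0 and 966.9 in the Adrb1-A187V;PS19 mice m671, m661, m660 and m658. All 16 were detected in every mouse, 0 of 16 had an unadjusted p under 0.05 by genotype, and 14 of 16 had r of at least 0.7 with the mean of the members, the most abundant, Csf1r and Ctss, at 0.85 and 0.93 and Tmem119 and P2ry12 at 0.56 and 0.43. Among 10 astrocyte markers, 6 had r of at least 0.7 with the mean of the members, Gfap at 0.91. The most abundant, Slc1a2 and Slc1a3, had 0.46 and 0.59, and Aldh1l1 had -0.53. Gfap, the intermediate filament gene of reactive astrocytes, was 748.4, 256.6, 219.6 and 826.7 CPM in the 4 PS19 mice, against 353.6, 181.7, 837.9 and 752.0 CPM in the 4 Adrb1-A187V;PS19 mice. The mice m677, m659, m660 and m658 thus stood apart from the other 4 in Gfap, 2 of each genotype, and the same 4 had the highest microglial sums. Cst7, a gene of disease-associated microglia, ranged from 11 to 221 counts, with the same 4 mice highest.

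Correlations of each member with 9 marker sums and with total counts gave 90 relations, none with an adjusted p under 0.05 (smallest 0.118) and 23 with an unadjusted exact permutation p under 0.05. With the microglial sum, r was 0.67 to 0.92 for the 8 members other than Ifit2 and -0.39 for Ifit2. Bst2 had r = 0.92 and rho = 0.88 (exact permutation p = 0.00367 and 0.00724, adjusted 0.118 and 0.180) and Oasl2 r = 0.90 and rho = 0.83 (exact permutation p = 0.00325 and 0.0154, adjusted 0.118 and 0.180). Without the 2 mice farthest from the median of the marker sum, r was 0.84 for Bst2 and 0.71 for Oasl2, but 0.22 for Isg15 and 0.13 for Irf9. With 4 mice on either side of the gap in Gfap, no correlation within a set was computed.

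The same 8 members had r of 0.48 to 0.90 with the summed astrocyte markers, 0.52 to 0.92 with those of disease-associated microglia, and -0.82 to -0.36 with neuronal markers. Apoe (1751 CPM on average) made up most of the disease-associated microglia sum, against 61.1 CPM for Axl, the next highest. Gene by gene, 8 of the 11 tested on that list had r of at least 0.7 with the mean of the members. Among the neuronal markers 2 of 8 had r of -0.7 or below, and Gad1 and Gad2 had 0.18 and 0.15. Of the 8 neuronal markers Gad2 had a log2 fold change of 0.24 (SE 0.07) and Slc17a7 of -0.19 (SE 0.07), with unadjusted p of 0.00325 and 0.0217 in edgeR (adjusted p = 0.9996). With total counts r was -0.83 to -0.22, and the 2 deepest libraries, m665 and m661, were the lowest in the mean of the members. Without the 2 mice farthest from the median total, r with total counts was -0.41 to 0.57. With the choroid plexus sum r was -0.25 to 0.57. Of 13 T- and B-cell markers only Cd4, which microglia can also express, had enough counts to be tested, and Cd3e and Cd8a had at most 7 counts in a mouse. The part of glial content, neuronal content and depth in the covariation of the members was not tested.

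**Figure D5:**
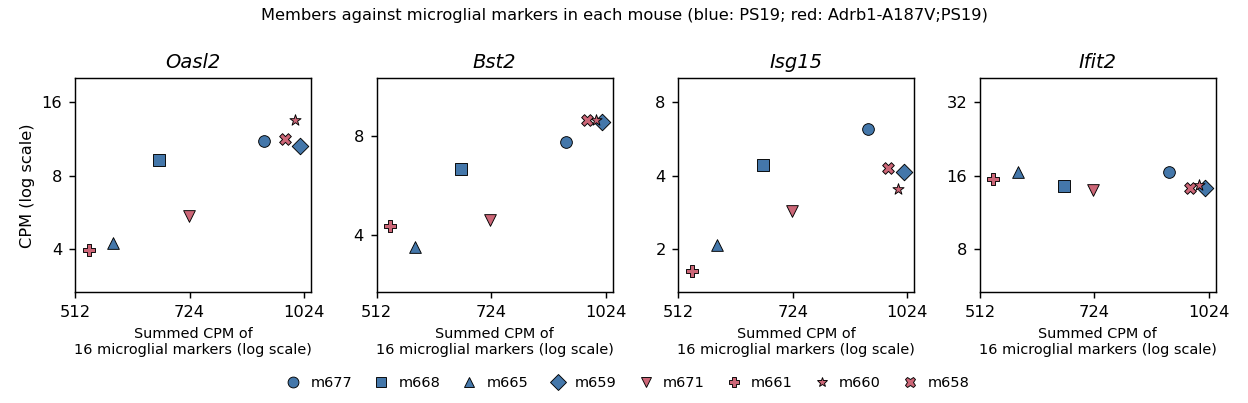
CPM of Oasl2, Bst2, Isg15 and Ifit2 (y axis, log scale) against the summed CPM of 16 microglial markers (x axis, log scale), 1 symbol per mouse, PS19 in blue and Adrb1-A187V;PS19 in red. Oasl2, Bst2 and Isg15 are lowest in m665, m671 and m661, which have microglial sums of 533.5 to 721.6, whereas m668, with a sum of 660.9, has the second highest Isg15 (4.42), and Ifit2 lies between 14.0 and 16.5 throughout.

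The microglial sum spanned 1.90-fold over the 8 mice, but a sum of 16 genes evens out the scatter of single genes, and single markers reached 2.70-fold (C1qa) and 2.57-fold (Ctss). For the members the range was 3.80-fold for Isg15, 3.66-fold for Usp18, 3.41-fold for Oasl2, 3.09-fold for Ifit3, 2.81-fold for Ifit1, 2.67-fold for Irf7 and 2.43-fold for Bst2, but 1.74-fold for Irf9 and 1.18-fold for Ifit2. Expressed per 100 CPM of microglial markers, the range was 1.56-fold for Bst2, 2.23-fold for Isg15 and 1.70-fold for Irf9, and that of Ifit2 widened to 2.07-fold. By this ratio Isg15 was 0.530 ± 0.168 in PS19 and 0.376 ± 0.0598 in Adrb1-A187V;PS19 mice, and Bst2 was 0.830 ± 0.136 and 0.810 ± 0.141.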

How the data were processed

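Cortical RNA of 4 PS19 and 4 Adrb1-A187V;PS19 mice was sequenced. The authors aligned reads with HISAT2 2.0.5 to GRCm38 (mm10), counted them per gene with featureCounts 1.5.0-p3 and deposited raw counts. Settings for strand, read pairs and multiple mapping are not given in the sources used here, so reads of near-identical or overlapping genes may be misassigned. The deposited gene lengths were used for levels per kilobase alone.

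Genes were filtered with filterByExpr (17195 kept), scaled with TMM and compared with edgeR 4.0.16 (quasi-likelihood test, 2-sided, no covariates, R 4.3.3). P-values were adjusted by Benjamini-Hochberg across these genes. Intervals are 95%. Correlations used log2 CPM with a prior count of 2. Alternatives were DESeq2 1.42.0, limma-voom (limma 3.58.1), DESeq2's size factors, other filters and each mouse left out. Scripts were tested on simulated data. The members and lists were chosen with earlier results of these data known. Named genes were the members, the receptor and signalling genes and paralogs, the 2 highest and 2 lowest log2 fold changes of each pathway list, the most abundant or most changed markers, and the 10 genes most like the members. Some genes of this rule are not reported here. Other genes (Cxcl10, Lgals3bp, Lag3, Gfap, Cst7 and single markers) were named after their values were seen. The p-values of edgeR set a genotype difference against the spread between mice, and exact permutation p-values come from all reassignments or pairings of the mice. Litter is not in the labels.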

Additional observations from a re-analysis of the deposited data

Results flagged for a closer look

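In 36 groups of 4 mice (the 9 genes and 9 marker sums in each genotype), a mouse was called far from the others when its gap to the nearest was over 82.9% of the group's range, which chance gives in about 1 of 20 groups. None of the 9 interferon-stimulated genes had such a mouse. The summed CPM of endothelial and pericyte markers was 421.0 in the PS19 mouse m659, below the 479.0 to 490.2 of the other 3. The summed CPM of choroid plexus markers was 602.9 in the Adrb1-A187V;PS19 mouse m658, above the 30.5 to 77.9 of the other 3. With endothelial and pericyte markers the 8 members other than Ifit2 had r of 0.23 to 0.52, and with choroid plexus markers -0.25 to 0.57. Without the 2 mice farthest from the median of the marker sum, these were 0.68 to 0.85 and -0.13 to 0.30.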

How the results depend on the processing

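No paired analysis was possible because litters are not in the labels. The authors state that controls were littermates, so any litter structure among these mice was left out of the tests. Across the 13 other fits, no member or pathway gene had an adjusted p under 0.05, and 2 of 117 member values had an unadjusted p under 0.05, both of Isg15. Without a filter beyond 1 count, 1366 genes had an unadjusted p under 0.05 and 66 an adjusted one, with 1 member (Isg15, -0.44, edgeR unadjusted p = 0.0460, adjusted p = 0.897) and 4 pathway genes below the unadjusted threshold. The number of genes tested in that fit is not given here, so these counts have no share beside them. The other 4 settings gave 447 to 555 genes and 0 members. limma-voom turned the sign of Ifit1 (0.028), Ifit3 (0.064) and Usp18 (-0.061), and the cause was not tested.

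With each mouse left out, 431 to 674 genes had an unadjusted and 0 to 2 an adjusted p under 0.05, with 0 to 1 members, 0 to 3 pathway genes and 6 to 21 member pairs. The 3 pathway genes were Eif2ak2, Tap1 and Parp10 without m659, and Jak2, Tmem173 and Phf11d without m658. Their edgeR adjusted p was 0.9999 without m659 and 0.9997 without m658. Over all genes 476 and 454 had an unadjusted p under 0.05 in these fits. In the main fit the share over all genes tested was 2.80%, and 115 pathway genes were tested. The median member log2 fold change ran from -0.28 to 0.15. The sign turned for Bst2 (-0.20 to 0.18), Ifit1 (-0.28 to 0.28), Ifit3 (-0.24 to 0.31), Irf7 (-0.34 to 0.15), Oasl2 (-0.35 to 0.21) and Usp18 (-0.43 to 0.29). It did not for Ifit2 (-0.12 to -0.05), Irf9 (-0.30 to -0.07) and Isg15 (-0.68 to -0.19). The lowest counts were those of Usp18 (19 to 72) and Isg15 (34 to 101), and the part of depth in their intervals was not tested.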
